A study of Mus musculus with 36 samples.

Results

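The 36 genes described here carry the symbols of the standard 26S proteasome: Psma and Psmb for the 20S core, Psmc and Psmd for the 19S cap. They were chosen by symbol alone, leaving out the interferon-induced subunits Psmb8, Psmb9 and Psmb10, from 18193 genes that had a probe set annotated with a single gene symbol. Where a gene had several such probe sets, the brightest by its mean on the 36 arrays was used. The name constitutive covers most of them. Psma8 and Psmb11 are known as testis and thymus forms of core subunits, and Psmd5, Psmd9 and Psmd10 encode chaperones that help to assemble the cap rather than lasting parts of it.

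The proteasome degrades proteins that have been tagged with ubiquitin. Its barrel-shaped core is built of alpha and beta rings, with the cutting sites on the inner face of the beta rings, and the cap holds a ring of ATPases that unfold substrates, ubiquitin receptors, and a lid that removes the ubiquitin chain. Reticulocytes, the young red cells of blood, are a classic source of this machinery, which takes part in clearing proteins as these cells mature.

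The RNA came from the peripheral blood of 18 male mice aged 8 weeks, with 3 mice from each of 6 inbred strains: FVB/NJ, DBA/2J, 129S1/ImJ, C57Bl/6J, A/J and C3H/HeJ. A part of each mouse's total RNA was depleted of alpha and beta globin mRNA with the GLOBINclear kit, and both that RNA and the untreated whole RNA went onto an Affymetrix array, so that 18 GLOBINclear arrays stood against 18 whole arrays. The labels give the mice no engineered allele and no treatment beyond isoflurane anesthesia at blood collection. The protocol text writes 129S1/SvImJ for the strain labelled 129S1/ImJ. The study asked what globin mRNA does to array data from blood. Values are log2 expression as deposited, where 1 unit is a 2-fold difference in signal; probes differ in brightness, so levels are compared between arrays and never between genes. In RNA from whole tissue, fewer cells of a type and less RNA per cell cannot be told apart.

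The arrays looked like blood. The platelet list, with 5 of 5 markers on the array, had a mean level of 11.6 to 12.7 on GLOBINclear arrays and 9.98 to 11.9 on whole arrays. The red cell list (5 of 7 found) stood at 8.34 to 10.0 in GLOBINclear RNA and 7.58 to 9.63 in whole RNA, with its single-symbol Hba-a1 set at background. Neutrophil markers (5 of 5) ranged from 5.28 to 9.53 against 4.20 to 8.42 in whole RNA, and B cell (4 of 5), T cell (5 of 5), NK cell (5 of 5) and monocyte (4 of 5) lists were also present, the dimmest being Fcgr1, a monocyte receptor at background. C57Bl/6J replicate 1 stood apart on both of its arrays: 5278 probe sets reached log2 5 in GLOBINclear RNA, against 3802 to 4771 on the other arrays, and 3122 in whole RNA, against 2196 to 2727. Its mean correlation with the arrays of its own group was 0.935 in GLOBINclear RNA and 0.946 in whole RNA, below the 0.95 to 0.988 and 0.949 to 0.983 of the others.

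Psma3 had the largest change with depletion. Psmb2, Psmb5 and Psmd13 were called between strains. The promoter windows of 3 of these genes, all but Psmb2, are shown. Each runs from 250 bases before to 50 bases after the annotated start in RefSeq's GRCm38.p6 assembly, 5′ to 3′ on the gene's strand. The Psma3 window lies at chr12:70974373-70974672 on the plus strand, the Psmb5 window at chr14:54617946-54618245 on the minus strand and the Psmd13 window at chr7:140882144-140882443 on the plus strand. Capitals mark matches to CCAAT (the CCAAT box), TGACNNNGC (the core of the antioxidant response element, a site of the Nrf factors) or GGGCGG (the GC box) on either strand.
Psma3: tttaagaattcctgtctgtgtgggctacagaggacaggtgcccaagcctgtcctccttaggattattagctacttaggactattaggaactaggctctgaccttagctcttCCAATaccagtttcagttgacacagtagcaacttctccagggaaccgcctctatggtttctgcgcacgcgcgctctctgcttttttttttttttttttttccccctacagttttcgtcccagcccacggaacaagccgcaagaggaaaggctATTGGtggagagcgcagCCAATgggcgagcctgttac
Psmb5: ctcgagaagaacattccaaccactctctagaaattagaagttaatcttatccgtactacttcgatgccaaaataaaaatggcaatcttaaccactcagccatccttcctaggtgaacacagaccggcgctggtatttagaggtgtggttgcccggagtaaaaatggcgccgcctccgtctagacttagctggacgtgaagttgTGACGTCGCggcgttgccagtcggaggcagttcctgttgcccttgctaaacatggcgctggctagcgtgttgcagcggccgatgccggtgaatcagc
Psmd13: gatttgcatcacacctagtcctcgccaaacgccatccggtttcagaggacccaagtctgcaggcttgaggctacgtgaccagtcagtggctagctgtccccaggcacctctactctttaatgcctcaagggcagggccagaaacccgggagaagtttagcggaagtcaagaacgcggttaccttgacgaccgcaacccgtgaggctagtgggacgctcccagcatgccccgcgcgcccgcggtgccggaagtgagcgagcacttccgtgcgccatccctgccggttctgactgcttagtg
The Psma3 window held 3 CCAAT matches, 1 of them on the opposite strand. In the Psmb5 window the single match was to the antioxidant element, from -47 to -39, and the Psmd13 window held no match to any of the 3 motifs. Windows were available for 29 of the 36 genes, 31 windows in all. TGACNNNGC occurred in 5 of the 31 (16.1%), against 12.4% of all 32851 promoter windows of the same length. CCAAT was found in 12 (38.7%, against 37.4% of all windows) and GGGCGG in 18 (58.1%, against 35.7%). A Psmd9 match to TGACNNNGC overlapped a GGGCGG match. These are matches of letters and say nothing of binding.

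The first comparison asked what depletion of globin mRNA did to the proteasome signal. Of the 36 genes, 33 had a mean above log2 2.89, the median of all probe sets, and were tested in limma with the mouse as a block and Benjamini-Hochberg adjustment over 22518 probe sets. On the deposited scale 32 rose in GLOBINclear RNA, against 44.7% of the 11353 tested genes, and 1, Psmd7, fell, against 43.1%. At least 2-fold rises were called for 21 genes, against 22.1% of tested genes. The filter favours genes that are bright in at least 1 preparation, so all 36 were also counted without it. Then 33 rose, against 29.8% of the 18193 genes, and 3 fell (Psma8, Psmb11 and Psmd7), against 56.6%. The mean change had a median of 1.04 on the log2 scale over all 36, from -0.22 to 2.11, while the median tested gene changed by 0.04.

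**Figure D1:**
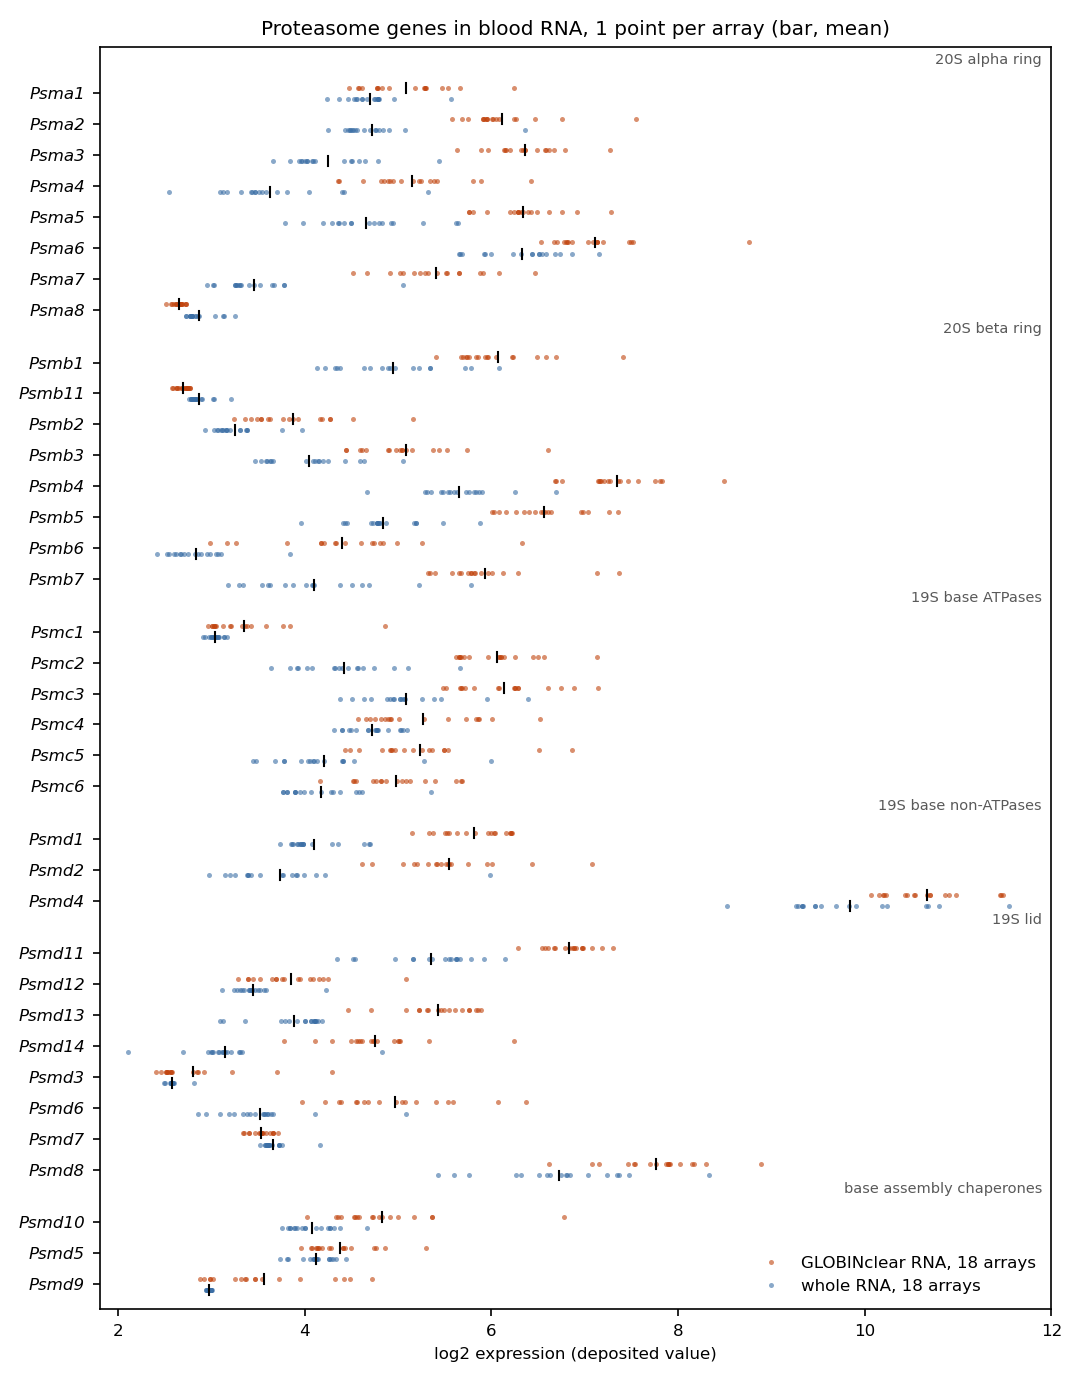
Log2 expression of the 36 genes (horizontal axis) on each array, grouped by the part of the proteasome they encode, with GLOBINclear RNA above whole RNA for each gene and a bar at the mean of 18 arrays. The Psma3, Psma5, Psmb5, Psmd1, Psmd11 and Psmd13 points of the preparations do not overlap, and Psma8 and Psmb11 lie near the bottom of the scale in both.

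In 23 genes every one of the 18 mice had the higher value in its GLOBINclear RNA, against 26.6% of tested genes. All 18 GLOBINclear arrays stood above all 18 whole arrays for 6 genes (Psma3, Psma5, Psmb5, Psmd1, Psmd11 and Psmd13), against 5.55% of tested genes. Averaged over the 36 genes, an array read 5.33 ± 0.29 in GLOBINclear RNA and 4.28 ± 0.24 in whole RNA (SD, n = 18 each). The median change over the genes within a mouse ran from 0.72 in A/J replicate 2 to 1.65 in DBA/2J replicate 3. In DBA/2J replicate 3 the deviations of its 2 arrays from their group means correlated at -0.0783. In 17 of 18 mice the GLOBINclear array correlated best with the mouse's own whole array. The exception was DBA/2J replicate 3, whose best match was DBA/2J replicate 2 (0.119).

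The alpha ring, which gates entry to the core, held 8 of the genes. All 7 that were tested rose, 5 of them at least 2-fold. Psma3 ranged from 5.63 (lowest) through 6.35 (median) to 7.27 (highest) in GLOBINclear RNA, against 3.66, 4.08 and 5.44 in whole RNA. The arrays of the preparations did not overlap, and the log2 change of 2.11 ± 0.08 (SE, limma adjusted p = 2.12e-14) was the largest among the 36 genes. Psma5 ranged from 5.76 through 6.30 to 7.29 in GLOBINclear RNA, against 3.79, 4.59 and 5.64 in whole RNA. It too showed no overlap, with a change of 1.68 ± 0.08 (adjusted p = 3.3e-13). Psma7 ranged from 4.52 through 5.37 to 6.47, against 2.95, 3.31 and 5.06 in whole RNA, and rose by 1.95 ± 0.10 (adjusted p = 4.47e-13). Here 13 of the 18 GLOBINclear arrays lay above the highest whole array, that of C57Bl/6J replicate 1. Psma2 and Psma4 rose by 1.39 and 1.52. On the deposited scale Psma1 and Psma6 rose least, by 0.39 ± 0.08 and 0.78 ± 0.10, and they read -0.65 and -0.58, in the other direction, after all arrays were forced to 1 distribution (quantile normalization). Psma8, the testis form, sat near the bottom of the scale with means of 2.65 in GLOBINclear RNA and 2.87 in whole RNA.

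The beta ring carries the cutting sites: Psmb5 the chymotrypsin-like, Psmb6 the caspase-like and Psmb7 the trypsin-like one. All 7 of its tested genes rose, 6 at least 2-fold. Psmb5 ranged from 6.01 through 6.54 to 7.35 in GLOBINclear RNA, against 3.95, 4.78 and 5.88 in whole RNA. These ranges did not meet, and the change was 1.73 ± 0.07 (limma adjusted p = 2.21e-14), within 1.22 to 2.17 in every mouse. Psmb7 ranged from 5.32 through 5.80 to 7.37, against 3.18, 4.04 and 5.79 in whole RNA, and rose by 1.83 ± 0.10 (adjusted p = 3e-12). Psmb4, a structural subunit, ranged from 6.68 through 7.26 to 8.50, against 4.67, 5.61 and 6.69 in whole RNA, and rose by 1.69 ± 0.11 (adjusted p = 3.19e-11). The ranges of both genes met only through the brightest whole array, FVB/NJ replicate 2 for Psmb7 and C57Bl/6J replicate 1 for Psmb4. Psmb6 changed by 0.19 to 2.49 between mice, with an SD of 0.66 and a mean of 1.56 ± 0.15 (SE). Psmb1, Psmb2 and Psmb3 rose by 1.12, 0.62 and 1.04 on the deposited scale, with Psmb1 at -0.09 and not called after quantile normalization of all arrays. A second, dimmer Psmb1 set was not called (adjusted p = 0.997). Psmb11, the thymus form, averaged 2.69 in GLOBINclear RNA and 2.86 in whole RNA, near the bottom of the scale.

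The ATPases of the cap's base, which unfold the substrate, gave smaller changes. All 6 rose, 3 of them at least 2-fold, with a median of 0.92. Psmc2 ranged from 5.62 through 6.08 to 7.13 in GLOBINclear RNA, against 3.64, 4.38 and 5.66 in whole RNA, and rose by 1.64 ± 0.08 (limma adjusted p = 5.01e-13). Psmc3 ranged from 5.48 through 6.16 to 7.15, against 4.38, 5.02 and 6.39 in whole RNA; it rose by 1.05 ± 0.07 on the deposited scale but read -0.24 after quantile normalization of all arrays. Psmc5 ranged from 4.43 through 5.11 to 6.86, against 3.44, 4.09 and 5.99 in whole RNA, a change of 1.02 ± 0.10 that was not called after the same normalization (0.21, adjusted p = 0.101). In all 3 genes each of the 18 mice had the higher value in GLOBINclear RNA. Psmc6 and Psmc4 rose by 0.81 and 0.54 (Psmc4 read -0.54 after quantile normalization of all arrays). Psmc1 rose least, by 0.31 ± 0.11 and in 13 of 18 mice, close to background.

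The base also holds 2 scaffold proteins, Psmd1 and Psmd2, and the ubiquitin receptor Psmd4. Psmd1 ranged from 5.15 through 5.89 to 6.22 in GLOBINclear RNA, against 3.73, 3.97 and 4.70 in whole RNA. No arrays overlapped, and it rose by 1.72 ± 0.08 (limma adjusted p = 1.13e-13). Psmd2 ranged from 4.61 through 5.49 to 7.07, against 2.98, 3.64 and 5.98 in whole RNA, and rose by 1.81 ± 0.09. Its highest array in both preparations was FVB/NJ replicate 2. Psmd4 ranged from 10.06 through 10.60 to 11.49, against 8.53, 9.61 and 11.55 in whole RNA; it rose by 0.83 ± 0.09 in 17 of 18 mice on the deposited scale but read -0.16 after quantile normalization of all arrays.

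The lid removes the ubiquitin chain through Psmd14, a metalloprotease that works beside the inactive Psmd7. Of its 8 genes 7 were tested, of which 6 rose and 1 fell. Psmd14 ranged from 3.78 through 4.72 to 6.25 in GLOBINclear RNA, against 2.11, 3.12 and 4.83 in whole RNA, and rose by 1.61 ± 0.07 (limma adjusted p = 6.76e-14), in every mouse. Psmd13 ranged from 4.46 through 5.48 to 5.89, against 3.09, 4.03 and 4.18 in whole RNA, with no overlap and a change of 1.54 ± 0.07 (adjusted p = 1.05e-13). Psmd11 ranged from 6.28 through 6.88 to 7.30, against 4.35, 5.52 and 6.15 in whole RNA, also with no overlap, and rose by 1.48 ± 0.10 on the deposited scale (adjusted p = 2.63e-11). After quantile normalization of all arrays it was not called (0.14, adjusted p = 0.139). Psmd6, Psmd8 and Psmd12 rose by 1.45, 1.04 and 0.41 (Psmd8 read -0.29 after quantile normalization of all arrays), and Psmd3 was too dim to be tested.

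Psmd7 was the tested gene that fell. It ranged from 3.34 through 3.54 to 3.72 in GLOBINclear RNA, against 3.52, 3.61 and 4.17 in whole RNA, and was lower in 15 of 18 mice. The ranges overlapped and lay low on the scale. On the deposited scale it fell by 0.13 ± 0.05 on the log2 scale (limma adjusted p = 0.0154). The call was lost when each array was centred on its median (-0.05, adjusted p = 0.356), and the sign turned, to 1.95, when arrays were centred on the hybridization spike-ins, a scaling under which 99.8% of tested genes rose and the median tested gene read 2.12. A dimmer Psmd7 probe set changed by -0.08.

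All 3 chaperones of cap assembly rose, none at least 2-fold. Psmd10 (gankyrin) ranged from 4.03 through 4.73 to 6.78 in GLOBINclear RNA, against 3.76, 4.0 and 4.66 in whole RNA, and rose by 0.76 ± 0.12 on the deposited scale, but was not called after quantile normalization of all arrays (0.02, adjusted p = 0.888). Psmd9 ranged from 2.88 through 3.42 to 4.72, against 2.94, 2.98 and 3.00 in whole RNA, and rose by 0.59 ± 0.13; its whole RNA arrays were all at 1 level near background. Psmd5 ranged from 3.96 through 4.27 to 5.30, against 3.74, 4.12 and 4.44 in whole RNA; it rose by 0.26 ± 0.09 on the deposited scale (limma adjusted p = 0.00968, 13 of 18 mice) but read -0.38 after quantile normalization of all arrays.

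The size of a change went with the level of signal across all genes, so the proteasome genes were set beside tested genes in bands of mean signal. The 2 genes tested below log2 3.5, Psmc1 and Psmd9, had a median change of 0.45, against -0.15 for the tested genes there. Among genes with a mean of log2 3.5 to 5, 17 of 18 proteasome genes rose, against 58.2% of tested genes, with a median change of 1.03 against 0.39. Brightness was not matched within this band. Its dimmest part held 2247 of the 3969 tested genes, whose median change was 0.06 (mean log2 3.72). The median was 0.69 in the middle part (4.22) and 1.20 in the brightest (4.73). In that brightest part Psma1, Psmc4, Psmc6, Psmc5 and Psmb3 rose by 0.39, 0.54, 0.81, 1.02 and 1.04. Psmd13, Psmd1 and Psmd2 rose there by 1.54, 1.72 and 1.81. Between log2 5 and 7 all 11 rose, against 93% of tested genes, and the medians were 1.64 and 1.47. The 2 genes above log2 7, Psmd4 and Psmd8, had a median of 0.93, against 1.18 for the tested genes there. The band medians stood further apart below log2 5 than above it. That gap was not taken at equal brightness, since both signal and change varied within a band, and it was not tested.

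**Figure D2:**
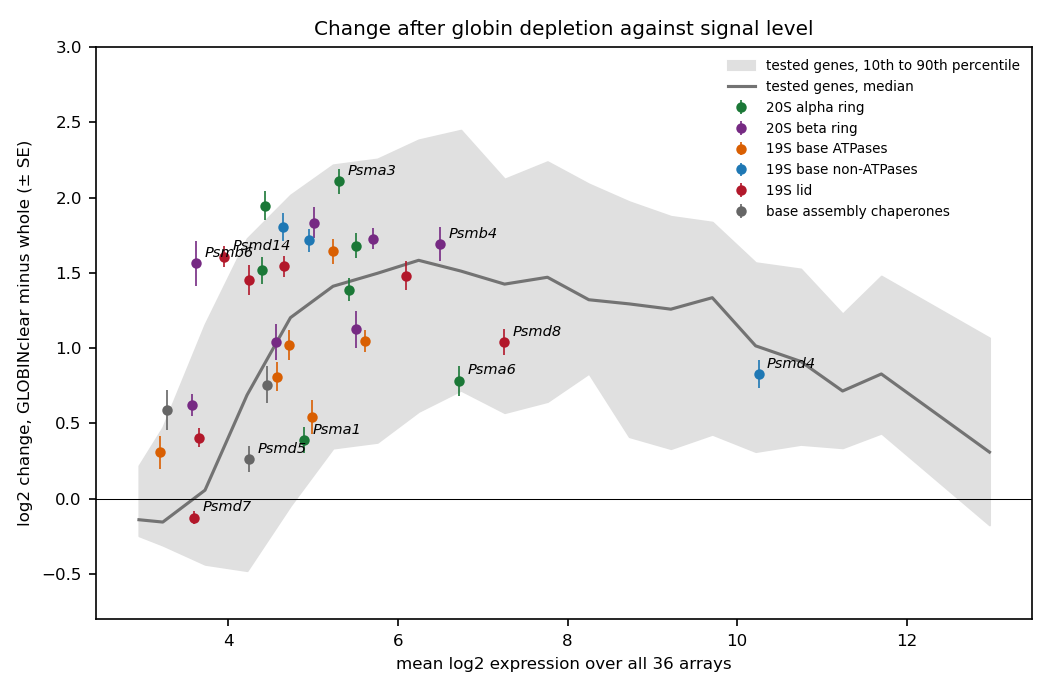
Log2 change, GLOBINclear minus whole (vertical axis, ± SE), against mean log2 expression over all 36 arrays (horizontal axis) for the 33 tested genes, coloured by part of the proteasome; the grey line and band are the median and the 10th to 90th percentile of tested genes. Psma3, with a change of 2.11, lies high in the band, Psmd4 and Psmd8 lie near or below the line, and Psmd7 lies just under 0.

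The scaling of the arrays set how many genes were called. After quantile normalization of all 36 arrays, 19 proteasome genes rose, against 34.1% of tested genes, 8 fell, against 48.3%, and 6 were not called (Psmb1, Psmb3, Psmc5, Psmc6, Psmd10 and Psmd11). The 8 that fell were Psma1, Psma6, Psmc3, Psmc4, Psmd4, Psmd5, Psmd7 and Psmd8, all but Psmd7 opposite to the deposited scale. Relative to the median tested gene, the median of the 33 tested proteasome genes stood 1.08 higher as deposited and 0.37 higher after quantile normalization of all arrays. Centring on the spike-ins, which changed by -2.08, moved the median tested gene to 2.12 and the median of the proteasome genes to 3.20; a shift of a whole array leaves the difference between these medians as it was, by construction.

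Marker genes of blood cells moved with depletion too. On the deposited scale 44.7% of tested genes rose and 43.1% fell. Of the markers on the array, 4 of 4 B cell, 4 of 5 T cell, 4 of 5 NK cell and 4 of 5 neutrophil genes rose there. So did 3 of 4 monocyte, 5 of 5 platelet and 3 of 5 red cell genes, while the red cell gene Alas2 changed by -0.29. After quantile normalization of all arrays 34.1% of tested genes rose and 48.3% fell. Then 3 B cell, 4 T cell, 5 NK cell, 4 neutrophil, 3 monocyte, 3 platelet and 2 red cell genes rose. In that scaling 1 T cell, 1 platelet and 2 red cell genes fell. As deposited, the mean levels were 4.54 to 8.13 in GLOBINclear RNA against 3.38 to 6.93 in whole RNA for the B cell list. For the T cell list they were 4.95 to 7.50 against 3.86 to 6.30. They were 3.69 to 6.60 against 2.76 to 5.04 for the NK cell list and 4.36 to 6.05 against 3.82 to 4.90 for the monocyte list. Both preparations of a mouse came from the same extract and so from the same cells. Whether a gene's change went with the cell type that expresses it was not tested.

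Different probe sets of a gene did not always agree. The 36 genes had 74 single-symbol probe sets, and 22 of the 38 not used above were tested. Of these 22, 11 rose, against 44.7% of tested genes, 8 fell, against 43.1%, and 3 were not called. A second Psma5 set rose by 1.31, a second Psma7 set by 1.30, a second Psmb4 set by 1.63, a second Psmc2 set by 1.89 and a second Psmd4 set by 0.60. Psmd11 had 2 further tested sets, which rose by 2.74 and 1.28, and a second Psmd13 set rose by 0.89. A dim second Psma3 set changed by -0.23, and 3 further Psma1 sets fell, with changes from -0.42 to -0.13. Psma6 had further sets at 1.69, -0.10 and -0.29. For Psmc6, whose set used above rose by 0.81, a second set changed by -0.46 and was higher in 0 of 18 mice, and the remaining one was not called (adjusted p = 0.948). For Psmd6, with 1.45 in the set used above, a second set changed by 0.19 and was not called (adjusted p = 0.158). The sets used for Psma6, Psmb4, Psmc2 and Psmd11 are of the types (x_at and s_at) whose probes can match other transcripts.

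The strains were compared next. No proteasome gene was called for a depletion effect that differed between strains (limma F test of the interaction, 0 of 33, against 2.74% of tested genes). At an unadjusted p under 0.05 there were 4, against 15.3% of tested genes, and 1 was called without DBA/2J replicate 3 (Psmb2) or without FVB/NJ replicate 3 (Psmd10). In GLOBINclear RNA 1 of 33 genes, Psmd13, differed between the strains, against 12.3% of tested genes, and 8 passed unadjusted, against 24.6%. In whole RNA 0 of 33 differed, against 4.77%, and 6 passed unadjusted, against 14.6%. These counts take 1 probe set per gene. A further Psmd11 set, the one that rose by 2.74 with depletion, differed between strains in whole RNA (limma F test, adjusted p = 0.0176). For the Psmd11 set used here the adjusted p was 0.231. Psmd4 was called in whole RNA without 129S1/ImJ replicate 2 or without FVB/NJ replicate 1. The spread between mice of a strain had a median SD of 0.459 in GLOBINclear RNA and 0.398 in whole RNA for these genes. For all tested genes it was 0.227 and 0.156. Brightness was not matched here: 5509 of the 11353 tested genes had a mean under log2 3.5, against 2 of the 33 tested proteasome genes. The wider spread is therefore not read as a trait of these genes. With 3 mice a strain the number of arrays limits what could be detected.

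Psmd13, a structural lid subunit, was low in A/J. In GLOBINclear RNA the A/J mice read 4.71, 5.08 and 4.46, against 5.22 (lowest), 5.54 (median) and 5.89 (highest) in the 15 mice of the other strains. No A/J array reached the lowest of the others. In whole RNA the A/J mice read 3.12, 3.09 and 3.78, against 3.36, 4.07 and 4.18, and here 1 A/J mouse lay within the range of the others, whose lowest was a DBA/2J mouse. The strain F test gave a limma adjusted p of 0.0305 in GLOBINclear RNA and 0.205 in whole RNA. The GLOBINclear call was lost without A/J replicate 1 or 3, C57Bl/6J replicate 2, DBA/2J replicate 2 or FVB/NJ replicate 1 or 3 (adjusted p 0.0174 to 0.168 over all 18 leave-outs). It was also lost after quantile normalization of all arrays (0.136) or within each preparation (0.129), with spike-in centring (0.294), with no filter on dim probe sets (0.0636) and with the replicate number as a block (0.0506). With both arrays of a mouse averaged, A/J stood at 3.91 to 4.12 and the other mice at 4.29 to 5.04, a difference of -0.73 ± 0.12 (SE, limma adjusted p = 0.00274). It was the only proteasome gene called in A/J, against 3.58% of tested genes, and the call held whichever mouse was left out (adjusted p 0.000826 to 0.0309). It was lost on whole arrays alone (adjusted p = 0.0708) and with spike-in centring (adjusted p = 0.0574). The second Psmd13 probe set was lower in A/J by a difference of -0.37, with an adjusted p of 0.0865, so the call rests on 1 probe set. A/J also had the lowest mean of the B cell, T cell and monocyte lists in GLOBINclear RNA and the highest of the red cell list; their part in the Psmd13 difference was not tested.

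**Figure D3:**
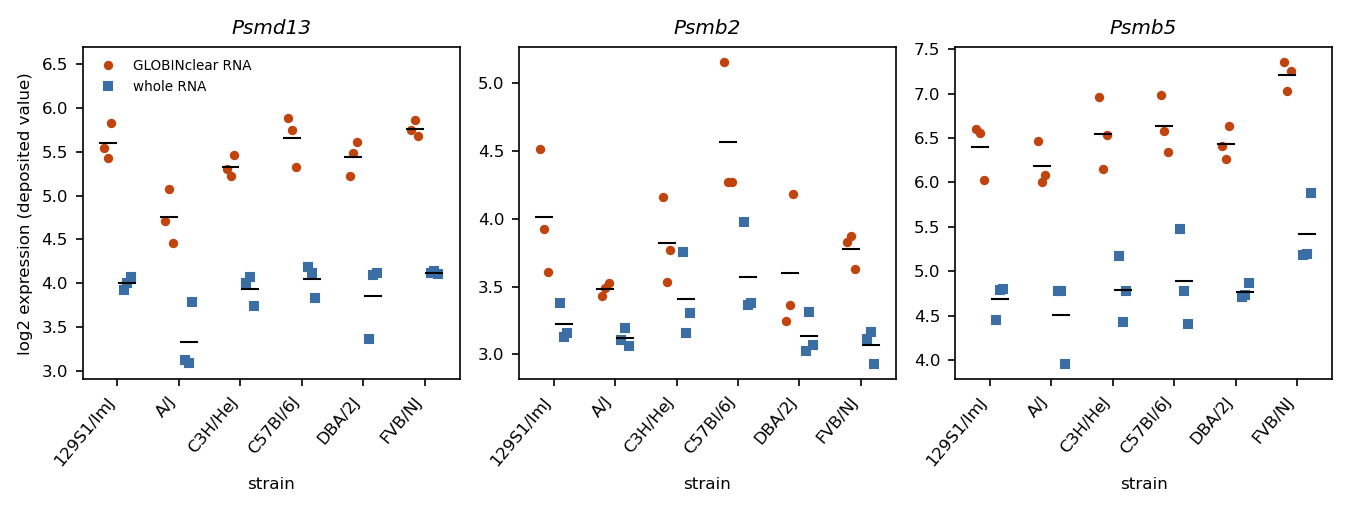
Log2 expression (vertical axes) of the 3 genes called in a strain contrast by the probe set used, by strain, with 3 GLOBINclear arrays to the left of 3 whole arrays and a bar at each mean. The A/J values of Psmd13, 4.46 to 5.08 in GLOBINclear RNA, lie under those of all other strains, the FVB/NJ values of Psmb5 lie highest in GLOBINclear RNA, and 1 C57Bl/6J mouse is highest for Psmb2.

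Psmb5, the chymotrypsin-like subunit and the main target of proteasome inhibitor drugs, was high in FVB/NJ. The FVB/NJ mice read 7.35, 7.03 and 7.26 in GLOBINclear RNA, against 6.01, 6.46 and 6.98 (lowest, median and highest of 15) in the other strains. In whole RNA they read 5.19, 5.19 and 5.88, against 3.95, 4.78 and 5.48. The groups did not overlap in GLOBINclear RNA and overlapped in whole RNA. The difference was 0.73 ± 0.19 (limma adjusted p = 0.0464), the single proteasome call in FVB/NJ, against 3.91% of tested genes. Of the 18 fits that left out a mouse, 4 kept the call (those without A/J replicate 1, C3H/HeJ replicate 1 or C57Bl/6J replicate 1 or 3), with adjusted p from 0.0163 to 0.273 over all of them. The call was also lost with median centring (adjusted p = 0.0535), spike-in centring (0.237), no filter on dim probe sets (0.0936) and whole arrays alone (0.223). FVB/NJ had the lowest mean of the neutrophil list in GLOBINclear RNA, at 5.65 where the list ran to 7.91 in the highest strain; its part in the Psmb5 difference was not tested.

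Psmb2, a structural beta subunit, was high in C57Bl/6J. Its C57Bl/6J mice read 5.16, 4.27 and 4.27 in GLOBINclear RNA, against 3.24, 3.63 and 4.51 in the other strains, and 3.97, 3.37 and 3.38 in whole RNA, against 2.93, 3.16 and 3.76. The groups overlapped in both preparations, and replicate 1 was the highest array in each. The difference was 0.60 ± 0.16 (limma adjusted p = 0.0357), the single proteasome call in C57Bl/6J among the probe sets used, against 6.54% of tested genes. Without C57Bl/6J replicate 1 it was 0.36 with an adjusted p of 0.226, and 8 of the 18 fits that left out a mouse kept the call. The Psmb2 call was also lost with spike-in centring (adjusted p = 0.288), no filter on dim probe sets (0.0679) and whole arrays alone (0.172). A further Psmd11 set was higher in C57Bl/6J by 0.65 (limma adjusted p = 0.034). The Psmd11 set used here differed by 0.31 and was not called (0.474). C57Bl/6J had the highest means of the NK cell list (5.47, the lowest strain having 4.54) and the platelet list (12.4, the lowest having 11.6) in GLOBINclear RNA; their part in the Psmb2 difference was not tested. No proteasome gene was called in 129S1/ImJ (6.4% of tested genes were), C3H/HeJ (1.39%) or DBA/2J (2.2%). In these strains 2, 0 and 5 of 33 genes passed unadjusted, against 18.4%, 7.86% and 10% of tested genes.

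The direction of the strain differences was counted as well. In C57Bl/6J 31 of 33 genes stood above the mean of the other strains, with a median difference of 0.32, but without replicate 1 the count was 18 and the median 0.02. That mouse had the highest value of all mice for 20 of the 36 genes in GLOBINclear RNA and for 18 in whole RNA. In A/J 4 of 33 genes stood above the others (median -0.25), in DBA/2J 9 (-0.11), in C3H/HeJ 10 (-0.03), in FVB/NJ 19 (0.04) and in 129S1/ImJ 20 (0.06). These counts have no test, since genes of a mouse share its arrays.

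**Figure D4:**
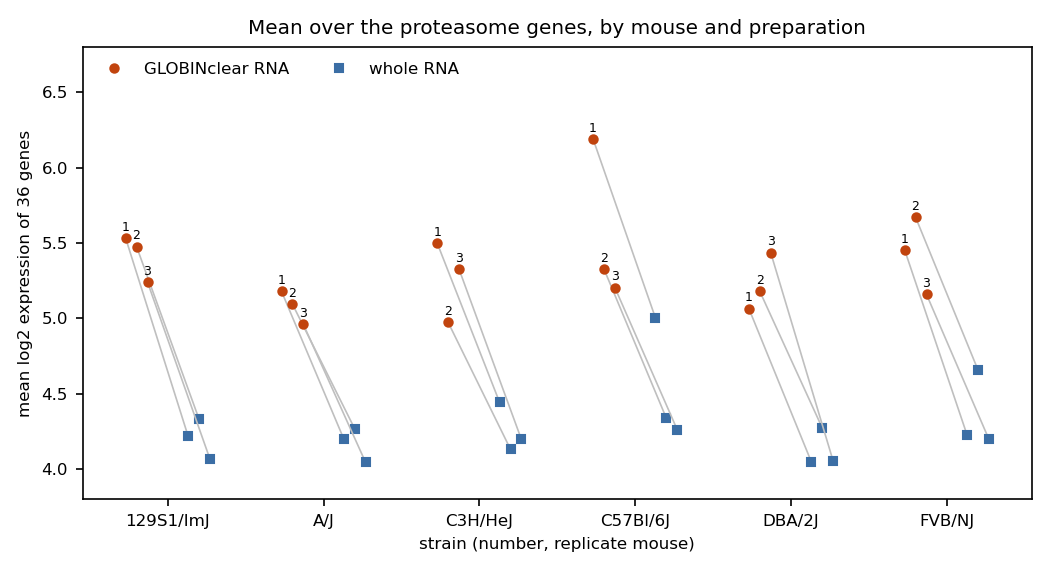
Mean log2 expression over the 36 genes (vertical axis) for each mouse, by strain, with GLOBINclear RNA (circles, left) joined to whole RNA of the same mouse (squares, right); numbers are replicates. C57Bl/6J replicate 1 stands highest in both preparations, at 6.19 and 5.0, and the next highest values are 5.67 and 4.66.

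Per strain, the mean over the 36 genes was 5.42 ± 0.15 in GLOBINclear RNA and 4.21 ± 0.13 in whole RNA in 129S1/ImJ (SD, n = 3 here and below). It was 5.08 ± 0.11 and 4.17 ± 0.11 in A/J, and 5.26 ± 0.27 and 4.26 ± 0.16 in C3H/HeJ. C57Bl/6J had 5.57 ± 0.54 and 4.53 ± 0.41, or 5.26 and 4.30 without replicate 1. DBA/2J had 5.23 ± 0.19 and 4.13 ± 0.13, and FVB/NJ 5.43 ± 0.26 and 4.36 ± 0.26. In GLOBINclear RNA A/J was lowest, and each pair of neighbours in the order of strains differed by less than the larger of their SDs.

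Genes that work with the proteasome were read from lists chosen by function. All 3 interferon-induced core subunits rose on the deposited scale, against 44.7% of tested genes. Psmb10 rose by 1.79 ± 0.15, Psmb9 by 1.66 ± 0.12 and Psmb8 by 1.57 ± 0.09. Each was higher in all 18 mice, as were 26.6% of tested genes. All 4 activator and inhibitor genes on the array rose on the deposited scale. After quantile normalization of all arrays 2 rose, against 34.1% of tested genes, and 2 were not called. Psme4, an activator cap, rose by 1.42 ± 0.08 and Psme1, a part of the 11S cap, by 1.23 ± 0.07 (-0.10 after quantile normalization of all arrays). In GLOBINclear RNA 3 of these 4 differed between strains, against 12.3% of tested genes: Psmf1, an inhibitor protein (limma F test, adjusted p = 0.00123), Psme4 (adjusted p = 0.0138) and Psme1 (adjusted p = 0.0302). Psmf1 also differed in whole RNA (adjusted p = 0.00167), where 4.77% of tested genes did.

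Of the chaperones that build the core, 4 were tested, of which 2 rose, against 44.7% of tested genes, and 1 fell, against 43.1%. Pomp, which matures the core, ranged from 5.05 through 5.86 to 7.10 in GLOBINclear RNA, against 2.83, 3.87 and 5.93 in whole RNA, and rose by 1.83 ± 0.10. Psmg4 changed by -0.19 near background (1.88 with spike-in centring). In GLOBINclear RNA 2 of the 4 differed between strains, against 12.3% of tested genes. These were Psmg2 (limma F test, adjusted p = 0.0121) and Pomp (adjusted p = 0.0175). Psmg2 also differed in whole RNA (adjusted p = 5.5e-05), where 4.77% of tested genes did. Among receptors, deubiquitinases and cofactors 7 of 9 tested genes rose on the deposited scale, against 44.7% of all tested genes. After quantile normalization of all arrays 5 rose, against 34.1%. Sem1, a small lid subunit whose symbol does not follow the Psm pattern, ranged from 7.75 through 8.46 to 8.79, against 5.38, 5.96 and 7.07 in whole RNA, with no overlap and a change of 2.30 ± 0.10. Txnl1, a thioredoxin that binds the cap, rose by 1.71 ± 0.10. The 2 that fell, named after their values were seen, were the deubiquitinase Usp14 (-1.57 ± 0.24) and Ecpas (-0.36 ± 0.03), an adaptor that binds the 26S complex; with spike-in centring they read 0.51 (not called) and 1.71.

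Regulators of proteasome gene expression and of protein extraction rose in 6 of 6 tested cases on the deposited scale, against 44.7% of tested genes. After quantile normalization of all arrays 5 rose, against 34.1%, and Mafk fell. Vcp, the ATPase that pulls ubiquitin-tagged proteins out of complexes, rose by 2.18 ± 0.09 and Akirin2, which carries proteasomes into the nucleus, by 1.61 ± 0.09. Nfe2l1, the factor known to raise proteasome genes when the proteasome is blocked, was listed near background (median of 2.17 in GLOBINclear RNA, against 2.18 in whole RNA) and was not tested.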

How the data were processed

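The deposited values are log2 expression per probe set, read as log2 from their range. GCRMA, MAS5 and affy are named in the submitters' processing notes, with no version or order; joint or separate normalization of the preparations is not stated there. Promoters came from RefSeq (GRCm38.p6). Samples were grouped by their titles, and 0 value columns went unused. Of 45101 probe sets, 64 controls were left out, and the platform's annotation named the rest; all 36 symbols are current RefSeq names. Fits used limma 3.58.1 with an intensity trend (R 4.3.3, package data.table, version 1.17.8; figures in python 3.11.15, matplotlib 3.10.9, pandas 2.3.3), with the Benjamini-Hochberg method at 0.05, and were tested on simulated data. Depletion had the mouse as a block, since both preparations came from 1 extract; their deviations from group means correlated at a median of 0.379 (-0.0783 to 0.664, over 0.1 in 17 of 18 mice). Strains were compared by F tests and, on each mouse's mean, against the mean of the other 5. The genes, lists and tests were chosen with earlier results of these data known. Named genes were the 3 with the largest limma statistic in each group, genes that fell, and genes called between strains. Another list fixed by function is not reported here.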

Additional observations from a re-analysis of the deposited data

Results flagged for a closer look

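The depletion effect on Usp14, the deubiquitinase of the cap, differed between strains (limma interaction F test, adjusted p = 0.000528). Its log2 change was -3.24 ± 0.23 (SE, n = 3) in DBA/2J and -2.47 ± 0.23 in A/J, with means of 5.99 and 6.21 in GLOBINclear RNA against 9.22 and 8.69 in whole RNA. In FVB/NJ the change was -0.38 ± 0.23, with 5.66 in GLOBINclear RNA, against 6.04 in whole RNA, while the other strains lay between. Usp14 differed between strains in whole RNA (limma F test, adjusted p = 0.000256), as did 4.77% of tested genes. It was not called in GLOBINclear RNA (adjusted p = 0.0693), where 12.3% of tested genes were. Its probe set is of the x_at type, whose probes can match other transcripts, and the cause was not tested.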

How the results depend on the processing

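The rise of most proteasome genes kept its direction in every fit that left out a mouse (32 rose, 1 fell, 20 to 21 at least 2-fold). Scaling changed the counts. After quantile normalization of all arrays 19 rose, 8 fell, 5 rose at least 2-fold (against 6.67% of tested genes) and the median change was 0.28; Psmd4 (-0.16), Psmc3 (-0.24) and Psmd5 (-0.38) reversed. With spike-in centring 33 rose at least 2-fold (against 99.5% of tested genes), 0 fell (0.0705%), the median was 3.12 and Psmd7 reversed (1.95). With median centring 0 fell (36.2%). With no filter 3 fell (56.6% of 18193 genes). With a filter at log2 5, 13 were tested, 13 rose (92.7% of 1875 genes), 11 at least 2-fold (70%) and 0 fell (4.53%). With the mean of a gene's probe sets 2 fell (35.7% of 9096 genes) and the median was 0.79. Strain differences in GLOBINclear RNA were called for 0 genes after either quantile normalization, with no filter or with the replicate block (Psmd13, F 5.83, adjusted p 0.0506), for 2 with gene means or without the intensity trend and for 3 with the filter at log2 5 (53.7% of genes there). In whole RNA the count was 2 with that filter (41.9%) and with gene means (6.55%). Calls over the strain contrasts numbered 1 with spike-in centring or no filter, 6 with the filter at log2 5 and 5 on GLOBINclear arrays alone. Leaving out a mouse gave 0 to 1 interaction calls, 0 to 2 in GLOBINclear RNA, 0 to 1 in whole RNA and 1 to 5 strain contrast calls. The cause was not tested. With all mice these tests called 2.74%, 12.3%, 4.77% and, by strain contrast, 1.39% to 6.54% of tested genes. Shares for the alternative strain contrasts and the leave-out fits are not given here. Those counts are therefore not read as a result about proteasome genes. Replicate numbers did not pair mice across strains (same-number pairs correlated over 0.1 in 17 of 45 cases in GLOBINclear RNA and 14 of 45 in whole RNA). Removing the mouse block from the depletion fit left its counts at 32 and 1. Of 502 depletion values of named genes under the alternatives, 494 kept direction and call, 4 lost the call and 4 reversed. Most of these genes were named for the largest statistic in the same data, and 18 of the alternatives each left out 1 mouse. The high count kept is therefore no measure for all members. Over all 33 tested genes, quantile normalization of all arrays alone gave 8 that fell and 6 not called. Of 111 strain values 67 kept direction and call and 44 lost the call. Probe sets near background limit what Psma8, Psmb11, Psmd3, Psmd7 and Psmd9 can show.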
